A study of Mus musculus and Homo sapiens with 54 samples.

Results

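The clustered protocadherin genes lie in the alpha, beta and gamma clusters on mouse chromosome 18 and on human chromosome 5. Members were the protein-coding genes of the annotation whose symbols begin with Pcdha, Pcdhb or Pcdhg, which gave 57 of 21938 mouse genes (14 alpha, 22 beta and 21 gamma) and 53 of 20033 human genes (15 alpha, 16 beta and 22 gamma). They were read against 7 lists of ChIP-seq peaks, that is, of genome positions where a histone mark or a protein was enriched over input. In the mouse, 4 lists came from untreated wild-type E14JU embryonic stem (ES) cells of strain 129/Ola: H2A.Z (2 libraries), H2AK119ub1 (3), H2BK120ub1 (3) and H3K27me3 (2, of which 1 is labelled both untreated and DMSO). A JARID2 list from mouse ES cells is not tied to libraries by the labels. The JARID2 libraries of the series carry Ring1AKO, Ring1BmAID and MCM2-2A, that is, a RING1A knockout, RING1B fused to an auxin-inducible degron and a mutated replicative helicase subunit. They are 2 control libraries with DMSO and 2 with indole-3-acetic acid (IAA, auxin) at 500 uM for 120 min. A figure legend of the study gives a slightly longer treatment for total JARID2 ChIP. The human lists, H2A.Z (2 libraries) and H2BK120ub1, came from wild-type HCT116 cells, a colon cancer line. The H2BK120ub1 libraries of that line are 2 untreated and 2 with triptolide at 10 uM for 20 min, and the labels do not say which of them the list used.

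Clustered protocadherins are cadherin-like cell surface proteins whose homophilic binding gives neurons an identity and underlies self-avoidance of their branches. In the alpha and gamma clusters each gene has its own promoter and a large variable first exon, which encodes the extracellular part and is spliced to constant exons shared by the whole cluster. Beta genes have no constant exons. Neurons choose a few alternate promoters at random, through CTCF and cohesin looping to distant enhancers and through DNA methylation, whereas the C-type genes at the downstream ends of the alpha and gamma clusters are used more broadly. H3K27me3 is written by Polycomb repressive complex 2 (PRC2), for which JARID2 is a cofactor, and H2AK119ub1 by the RING1 enzymes of Polycomb repressive complex 1. H2A.Z is a histone variant found at promoters, and H2BK120ub1 accompanies transcription through gene bodies.

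A promoter was counted as carrying a mark when at least 1 bp of a peak lay within 1 kb of the annotated gene start. Each list is 1 set of positions with no signal or depth, so the counts below have no replicate error and were not tested. The study describes its final lists as merged over replicates. The study lists read numbers for its libraries, which were not used here, and the lists do not give the depth behind each peak. Neighbouring promoters can share a peak and are not independent. The cell types were checked on marker genes. In the mouse lists, 6 of 7 ES cell markers (Pou5f1, Nanog, Sox2, Klf4, Zfp42 and Tfcp2l1, but not Esrrb) had H2BK120ub1 at the promoter, against 0 of 6 neuronal markers and the 25.9% of all protein-coding genes. In gene bodies the split was less clean: H2BK120ub1 touched 7 of 7 ES cell markers and 2 of 6 neuronal markers. Among all mouse genes over 3000 bp the share was 40.7%. The neuronal markers were Stmn2 (88.5% of the body) and Tubb3 (7.40%). In the HCT116 lists, 4 of 8 colon markers (CDX2, LGR5, ASCL2 and CDH1, but not EPCAM, CDX1, VIL1 or KRT20) had H2A.Z at the promoter, against 50.2% of all human genes. H2BK120ub1 was at 1 of the 8 (CDH1), against 24.0%, so these markers did not set the human lists apart as colon-derived.

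H3K27me3 was the most widespread mark over the clusters. It lay at 48 of 57 mouse promoters, against 19.6% of all protein-coding genes: 11 of 14 alpha, 17 of 22 beta and 20 of 21 gamma promoters. The 9 promoters without it were Pcdha6, Pcdha7, Pcdha8, Pcdhb6, Pcdhb7, Pcdhb8, Pcdhb10, Pcdhb11 and Pcdhga2, so the gaps formed a run in the alpha cluster, near-continuous gaps in the middle of the beta cluster and a single gap near the upstream end of gamma. At promoters that carried it, the median share of the 1 kb flanks covered was 65.6%, against 80.0% over all genes with the mark. Windows wholly inside H3K27me3 were those of Pcdha4, Pcdha5, Pcdha9, the downstream Pcdha11 record, Pcdha12, Pcdhac1 and Pcdhac2 in alpha, Pcdhb1, Pcdhb19 and Pcdhb21 in beta, and Pcdhga9, Pcdhga10, Pcdhgb7, Pcdhga11 and Pcdhgc4 in gamma. The start itself lay inside a peak at 21 of the 57. Pcdhb9 was at the margin of the definition, with 1.30% of its window covered by a peak that began 975 bp downstream of the start.

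The shape of the H3K27me3 peaks differed between clusters. The alpha cluster (chr18:36930184-37187661, mm10) held 9 peaks with a median width of 6809 bp that covered 25.7% of its length. The beta cluster (chr18:37264938-37524479) held 35 peaks with a median of 1451 bp that covered 22.8%. The gamma cluster (chr18:37661793-37841873) held 23 peaks with a median of 1895 bp, closer to beta than to alpha, that covered 40.7%. Across the mouse genome the list covered 1.16%. The widest domain, 18.5 kb at chr18:37742513-37761028, ran over the windows of Pcdhgb6, Pcdhga10, Pcdhgb7 and Pcdhga11. The widest alpha domain, 17.0 kb at chr18:37005710-37022741, took in both annotated Pcdha11 records and Pcdha12. The annotation gives the symbol Pcdha11 to 2 genes, and RefSeq (GRCm38.p6) names the upstream one Pcdha10. In the beta cluster no peak was wider than 5.28 kb, over Pcdhb2 and the window of Pcdhb3.

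**Figure D1:**
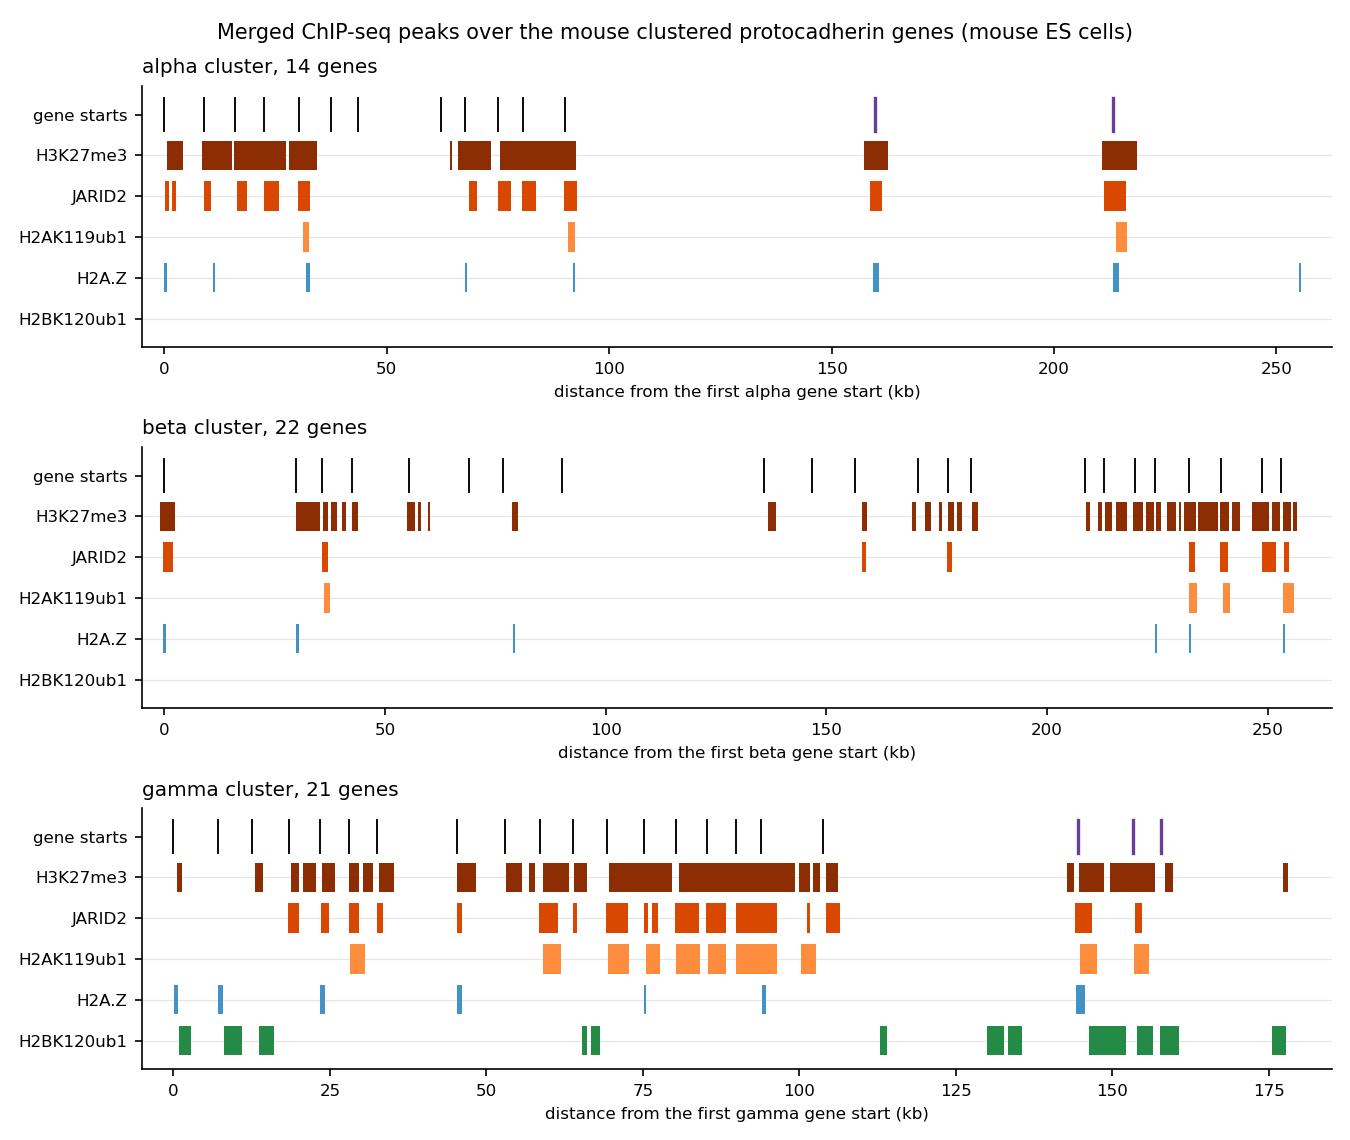
Maps of the mouse alpha, beta and gamma clusters, with distance from the first gene start of each cluster in kb on the x axis and 1 row for each of the 5 peak lists. Bars are merged peaks to scale and ticks are gene starts, purple for the 5 C-type genes. H3K27me3 forms long blocks in alpha and around the middle of gamma and short blocks in beta. H2BK120ub1 appears in gamma, with 12 peaks, and in neither of the other clusters.

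JARID2 followed H3K27me3 in the alpha and gamma clusters and was sparse in beta. The JARID2 libraries of the series are not wild type, and 2 of them had auxin, whereas the H3K27me3 list is from wild-type cells. The study reports that JARID2 on nascent chromatin fell when H2AK119ub1 was removed. Overlaps with JARID2 below therefore set lists from different genotypes side by side. It was found at 34 of 57 promoters, against 22.0% of all protein-coding genes, with 11 of 14 in alpha, 7 of 22 in beta and 16 of 21 in gamma. The 7 beta genes were Pcdhb1, Pcdhb3, Pcdhb13, Pcdhb19, Pcdhb20, Pcdhb21 and Pcdhb22, that is, 2 at the upstream end, 1 in the middle and the last 4 of the cluster. The gamma genes without it were Pcdhga1, Pcdhga2, Pcdhga3, Pcdhga7 and Pcdhgc5. All 34 promoters with JARID2 also had H3K27me3 (34 of 57, against 16.9% of all genes with both), whereas 14 promoters had H3K27me3 without JARID2, 10 of them beta genes. Within the 3 cluster spans all 37 JARID2 peaks overlapped H3K27me3, while 30 of 67 H3K27me3 peaks overlapped JARID2. The promoters covered most were Pcdhac1, Pcdhac2 and Pcdhga11, each at 100% of the window, followed by Pcdhgc3 at 74.9% and Pcdhb1 at 65.0%.

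H2AK119ub1 was restricted to fewer members and concentrated in the gamma cluster, mostly among the genes from Pcdhgb4 to Pcdhgc4. It lay at 17 of 57 promoters, against 10.8% of all protein-coding genes: 3 of 14 alpha (Pcdha5, Pcdha12 and Pcdhac2), 4 of 22 beta (Pcdhb3, Pcdhb19, Pcdhb20 and Pcdhb22) and 10 of 21 gamma. Among gamma B genes it was at 5 of 6, all but Pcdhgb1, and among gamma A genes at 3 of 12 (Pcdhga9, Pcdhga10 and Pcdhga11). The other gamma genes with it were Pcdhgc3 and Pcdhgc4. Every 1 of the 17 promoters also had H3K27me3 and JARID2, so that 17 of 57 members were in all 3 Polycomb-related lists, against 8.75% of all genes. The JARID2 libraries of the series had another genotype than the cells of the other lists. The start itself lay inside an H2AK119ub1 peak at 3 of the 57 (5.26%, against 6.13% of all protein-coding genes). The alpha values were small: the peak reached 1.55% of the window at Pcdha5, 7.50% at Pcdha12 and 21.8% at Pcdhac2. The most covered windows were Pcdhga11 at 100%, Pcdhgb6 at 51.4%, Pcdhgb7 at 50.1%, Pcdhga10 at 41.9% and Pcdhgb2 at 41.3%. H2AK119ub1 covered 17.5% of the gamma span, 2.08% of the alpha span and 2.62% of the beta span, against 0.767% of the genome. Its widest peak in the clusters, 6.69 kb at chr18:37751598-37758284, spanned Pcdhgb7 and Pcdhga11, as did the widest JARID2 peak there, 6.49 kb at chr18:37751670-37758162.

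**Figure D2:**
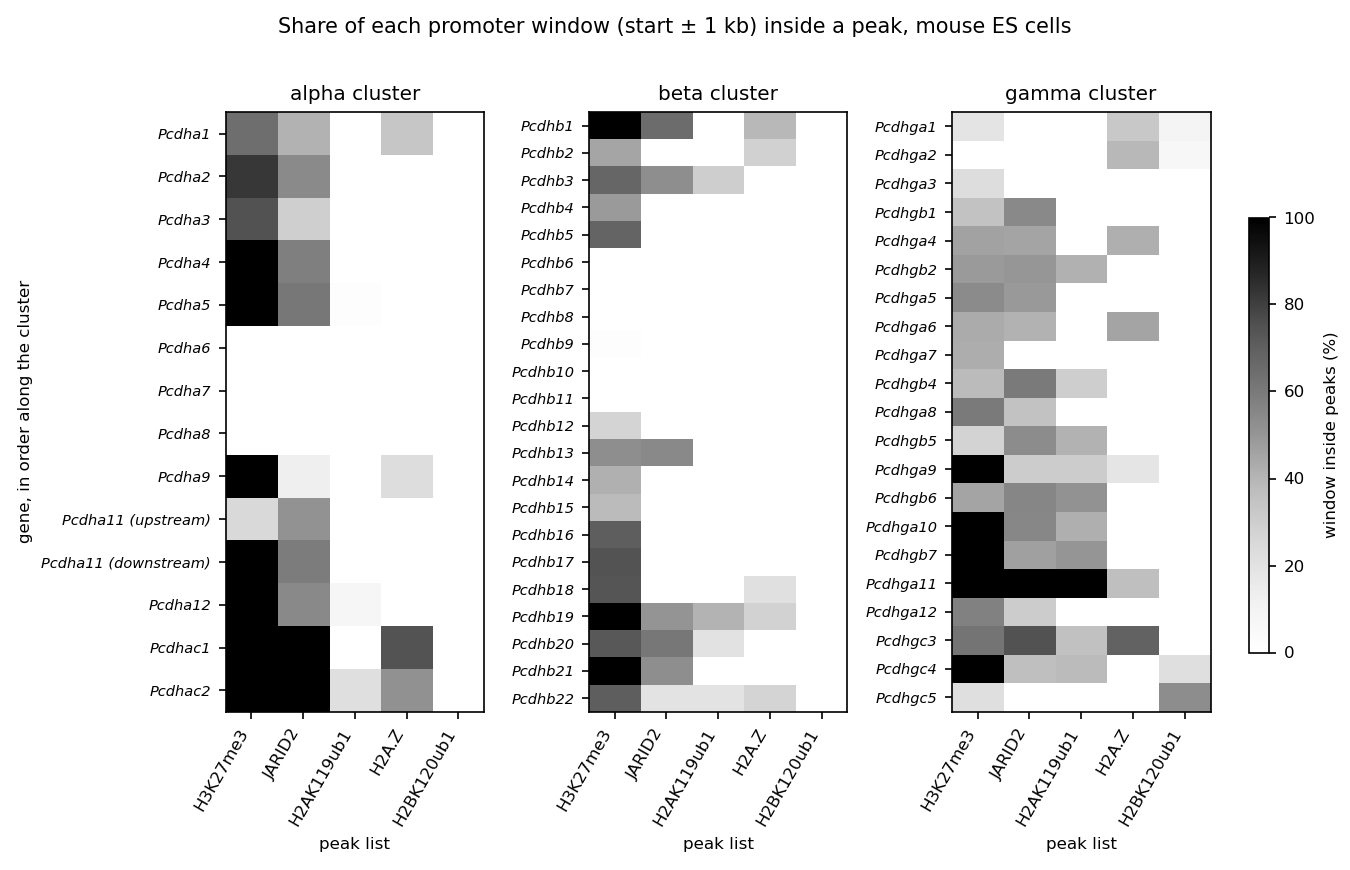
Share of the window of 1 kb on each side of the gene start that lay inside a peak, in percent (grey scale), for the 57 mouse genes in order along each cluster (rows) and 5 peak lists (columns). White rows mark the 8 genes without a peak of any list, 3 neighbouring alpha genes and 5 beta genes, and every dark H2AK119ub1 cell has a JARID2 and an H3K27me3 cell beside it.

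The 57 promoters fell into 11 groups by the lists they carried, one of them without any list. The most frequent were H3K27me3 with JARID2 (11 members), the same with H2AK119ub1 (10 members) and H3K27me3 alone (10 members, 8 of them beta genes and the others Pcdhga3 and Pcdhga7). All 5 lists together were found at no promoter. Combinations without a Polycomb-related list were limited to Pcdhga2, which carried H2A.Z and H2BK120ub1. Its upstream neighbour Pcdhga1 carried both and H3K27me3, Pcdhgc5 carried H3K27me3 and H2BK120ub1, and Pcdhgc4 carried all lists but H2A.Z. Pcdhb2 and Pcdhb18 carried H2A.Z and H3K27me3 without JARID2.

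No list had a peak at 8 promoters, Pcdha6, Pcdha7, Pcdha8, Pcdhb6, Pcdhb7, Pcdhb8, Pcdhb10 and Pcdhb11. Because neighbouring protocadherin genes are similar in sequence and the authors kept uniquely mapping reads, each window was scanned for 31-base words that occur again elsewhere in the mm10 genome on either strand. At these 8 promoters such words made up between 10.9% and 26.8% of the window (median 18.4%). At the 49 promoters with a peak of any list the median was 2.54% and the range 0% to 22.0%, and the ranges overlapped: Pcdhb9 (22.0%), Pcdhgb4 (19.2%) and Pcdhb12 (18.8%) had peaks. The read length was not used, and the part of repeated words in the absence of peaks was not tested. The absence also did not extend over the whole gene everywhere: H3K27me3 covered 19.1% of the first coding exon of Pcdha8, 19.4% of that of Pcdhb7 and 43.7% of that of Pcdhb11, where JARID2 covered 30.6%.

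Coverage by the Polycomb-related lists was higher in the first kilobase downstream of the start than in the kilobase upstream. In the kilobase upstream of the 57 starts, 10.1% of bases were inside a JARID2 peak, and in the first kilobase downstream 52.9% were. Over all protein-coding genes the same values were 11.9% and 18.8%. For H2AK119ub1 the upstream value was 1.81%, the first kilobase 19.2% and the second kilobase 28.9%, against 6.19%, 8.17% and 8.83% over all genes. For H3K27me3 the values were 41.8% upstream, 67.6% in the first and 71.8% in the second kilobase, against 12.3%, 15.1% and 15.2%. The difference was not limited to these lists: H2A.Z covered 2.82% upstream and 18.5% in the first kilobase, against 13.9% and 19.0% over all genes. Of the 33 JARID2 peaks at member promoters, 23 lay over a start and 10 began downstream. Of the 50 H3K27me3 peaks there that touched the cluster spans, 17 lay over a start, 23 began downstream and the rest lay upstream. A further peak of 1931 bp, outside the alpha span, ended 85 bp upstream of the Pcdha1 start. Of the 16 H2AK119ub1 peaks at member promoters, 14 began downstream of the start, by 162 bp at Pcdhga10 up to 970 bp at Pcdha5. All 17 genes with H2AK119ub1 in the window had more than 50% of the first coding exon inside its peaks. That exon had a median length of 2397 bp over the mouse members. It was more than 50% inside H3K27me3 peaks in 44 of 57 genes and inside JARID2 peaks in 26 of 57 (11 alpha, 4 beta and 11 gamma).

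**Figure D3:**
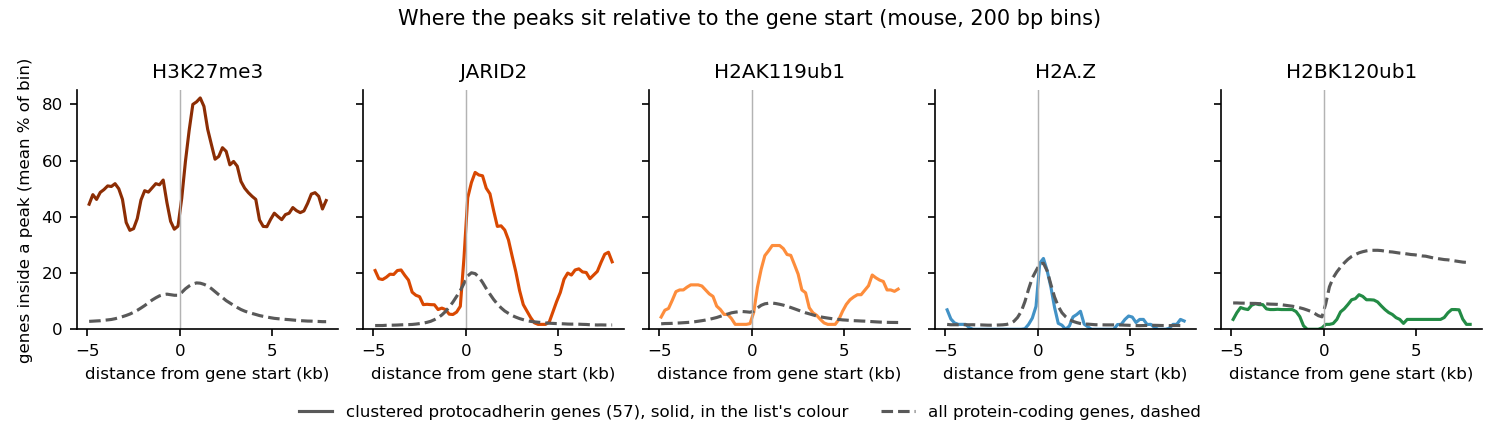
Mean share of each 200 bp bin inside a peak (y axis, percent) against distance from the gene start (x axis, kb, positive downstream) for the 57 mouse members (solid) and all protein-coding genes (dashed), 1 panel for each list. The member curves of H3K27me3, JARID2 and H2AK119ub1 rise at the start and stay high over the first 2 to 3 kb. H2A.Z forms a narrow peak of about the same height in both gene sets, with less of it upstream of the start in members. Bins far from a start include neighbouring members.

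H2A.Z was found at 16 of 57 mouse promoters, a share of 28.1% against 28.0% of all protein-coding genes. It was at 4 of 14 alpha promoters (Pcdha1, Pcdha9, Pcdhac1 and Pcdhac2), 5 of 22 beta (Pcdhb1, Pcdhb2, Pcdhb18, Pcdhb19 and Pcdhb22) and 7 of 21 gamma promoters. In gamma it was at 6 of 12 gamma A promoters (Pcdhga1, Pcdhga2, Pcdhga4, Pcdhga6, Pcdhga9 and Pcdhga11), at 0 of 6 gamma B promoters and at Pcdhgc3. For H2AK119ub1 the counts were 3 of 12 and 5 of 6, and neither difference was tested. H2A.Z peaks in the spans were narrow, with a median of 654 bp against 1060 bp over the whole list. With only peaks of at least 1 kb counted, 5.26% of members had H2A.Z at the promoter, against 20.4% of all protein-coding genes. The windows most covered by H2A.Z were Pcdhac1 at 74.5%, Pcdhgc3 at 68.7%, Pcdhac2 at 51.6%, Pcdhga6 at 45.4% and Pcdhga4 at 42.0%. Of the 16 promoter peaks, 8 lay over the start and 8 began downstream of it, by 15 bp at Pcdhb2 up to 456 bp at Pcdhb22. In the gamma A genes the distance was 30 bp at Pcdhga6, 40 bp at Pcdhga4, 63 bp at Pcdhga1 and 78 bp at Pcdhga11. In the spans 19 of 21 H2A.Z peaks overlapped H3K27me3, 13 overlapped JARID2, 7 overlapped H2AK119ub1 and 0 overlapped H2BK120ub1. The exceptions to the overlap with H3K27me3 were the peak at Pcdhga2 and a 502 bp peak at chr18:37185248-37185749, 41.7 kb downstream of the Pcdhac2 start, close to the end of the alpha cluster.

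The C-type genes did not share a pattern. Pcdhac1 had H3K27me3 and JARID2 over 100% of its window and H2A.Z over 74.5%, with no H2AK119ub1 peak. Pcdhac2, which is needed for the tiling of serotonergic axons, had H3K27me3 and JARID2 over 100%, H2A.Z over 51.6% and H2AK119ub1 over 21.8%. Pcdhgc3, which acts in dendrite growth, had JARID2 over 74.9%, H2A.Z over 68.7%, H3K27me3 over 61.8% and H2AK119ub1 over 35.8%. Pcdhgc4, which neurons need for survival, had H3K27me3 over 100%, H2AK119ub1 over 38.2%, JARID2 over 36.7% and H2BK120ub1 over 21.7%, and no H2A.Z. The last gene, Pcdhgc5, had H2BK120ub1 over 52.9% and H3K27me3 over 21.6%, and no JARID2, H2AK119ub1 or H2A.Z.

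H2BK120ub1 was confined to the gamma cluster. Its peaks reached 4 of 57 promoters, against 25.9% of all protein-coding genes: Pcdhga1 (8.90% of the window), Pcdhga2 (6.40%), Pcdhgc4 (21.7%) and Pcdhgc5 (52.9%). Only the Pcdhgc5 start itself lay inside a peak. With 2 kb on each side of the start the count was 8 of 57, against 31.3% of all protein-coding genes. No H2BK120ub1 peak lay in the alpha span or the beta span, and 12 lay in the gamma span, where they covered 29.1 kb or 16.2%. Coding exons were touched mainly at both ends of the cluster. At the upstream end, peaks covered 72.4% of the first coding exon of Pcdhga1, 70.2% of that of Pcdhga2 and 59.4% of that of Pcdhga3. At the downstream end they covered 35.2% of the first coding exon of Pcdhgc3, 95.4% of that of Pcdhgc4 and 100% of that of Pcdhgc5, and a 2225 bp peak lay 17.8 kb past the Pcdhgc5 start, towards the end of the cluster. Between Pcdhga3 and Pcdhgc3 the exception over a coding exon was Pcdhga8, with 30.3%. Peaks of 1016, 2803 and 2293 bp lay between Pcdhga12 and Pcdhgc3, away from any first coding exon. The widest peak, 5.79 kb at chr18:37808123-37813908, ran from the first exon of Pcdhgc3 towards Pcdhgc4. Of the 12 peaks, 7 overlapped H3K27me3 and 2 overlapped H2AK119ub1 and JARID2, at Pcdhgc3 and Pcdhgc4. These are overlaps of positions in populations of cells, and whether both marks sat on the same molecules was not tested.

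Read over gene bodies, all 21 mouse gamma genes contained H2BK120ub1 peaks, over 13.5% to 38.3% of their length, and 0 of 14 alpha and 0 of 22 beta genes did (18 of the beta genes are over 3000 bp). Among all mouse genes over 3000 bp, 40.7% had such a peak. The gamma count is not 21 separate results, because each gene body runs to the shared constant exons and the same downstream peaks lie in all of them. Outside the clusters, the last H2BK120ub1 peak before alpha ended 131 kb from the Pcdha1 start, and the next 1 began 707 kb past that start, a stretch of 838 kb without a peak of that list. That next peak, 7.10 kb at chr18:37637092-37644188, covered Slc25a2 and 99.6% of Taf7, a general transcription factor gene between the beta and gamma clusters. Downstream of gamma the first peak began 1.25 kb past the cluster, towards Diaph1, an actin nucleator gene with 69.8% of its body covered. H3K27me3, JARID2, H2AK119ub1 and H2A.Z had 0 peaks in the 50 kb after the gamma cluster.

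Other gene families gave a scale for these counts. The 10 delta protocadherins, which are not clustered and share the cadherin fold, had H3K27me3 and JARID2 at 10 of 10 promoters, H2A.Z at 7, H2AK119ub1 at 5 and H2BK120ub1 at 0. The 39 Hox genes, body-axis regulators that are textbook Polycomb targets, had H3K27me3 and JARID2 at 39 of 39, H2AK119ub1 at 38, H2A.Z at 20 and H2BK120ub1 at 0. The clustered protocadherins had lower shares than both sets for H3K27me3 (84.2%), JARID2 (59.6%), H2AK119ub1 (29.8%) and H2A.Z (28.1%). Their share with H2BK120ub1 was 7.02%, all of it from gamma.

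**Figure D4:**
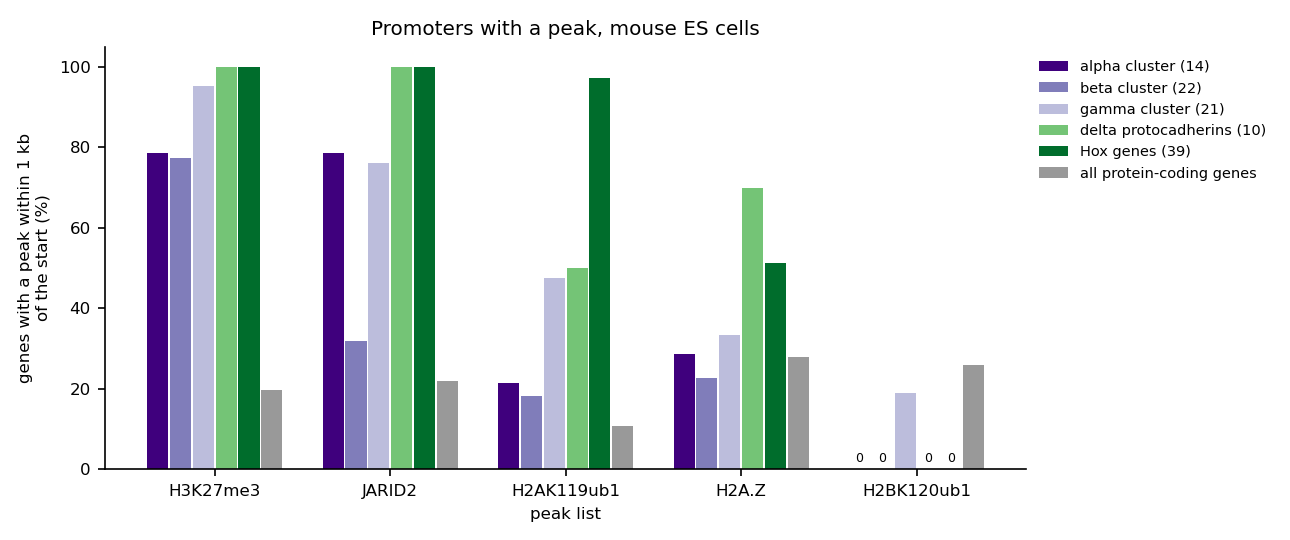
Percent of genes with a peak within 1 kb of the start (y axis) for 5 peak lists (x axis) in mouse ES cells, in the alpha, beta and gamma clusters, 10 delta protocadherins, 39 Hox genes and all protein-coding genes (bars, with no error because each list is 1 set of positions). JARID2 reaches 78.6% in alpha and 76.2% in gamma and 31.8% in beta, and H2BK120ub1 is at 0 in every family shown but gamma.

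Genes that act on or with protocadherins were counted in the same way. Of 18 regulators of the clusters, 10 had H2BK120ub1 at the promoter (55.6% against 25.9% of all genes). All 18 had it in the gene body, against 40.7% of all mouse genes over 3000 bp. H3K27me3 was at 1 regulator promoter, that of Dnmt3a (5.56% against 19.6%). H2A.Z was at 3 (16.7% against 28.0%), JARID2 at 3 (16.7% against 22.0%) and H2AK119ub1 at 2 (11.1% against 10.8%). Ctcf, which binds protocadherin promoters and enhancers, had its window and body covered to 100% by H2BK120ub1. The cohesin genes Rad21 and Smc3 were covered over 99.7% and 96.8% of the body. Smchd1, a repressor of the clusters, had JARID2 over 67.9% of its window and H2BK120ub1 over 46.5%. Dnmt3b, a DNA methyltransferase that acts on protocadherin promoters, had H2AK119ub1 and JARID2 over 100% of its window, without H3K27me3 there, and H2BK120ub1 over 68.9% of its body. Of 11 genes for partners and processing enzymes, 7 had H2A.Z at the promoter (63.6% against 28.0%), 5 had JARID2 (45.5% against 22.0%) and 5 had H2BK120ub1 (45.5% against 25.9%). H3K27me3 was at 2 (Fyn and Ret, 18.2% against 19.6%) and H2AK119ub1 at 1 (Ret, 9.09% against 10.8%), shares near those of all genes. Adam10, whose protease cleaves gamma protocadherins, had H2A.Z over 79.6% and JARID2 over 45.2% of its window and no H2BK120ub1.

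Base composition was compared as a description. Over the windows of 1 kb on each side, the median G+C content was 42.9% in mouse members against 51.2% over all protein-coding genes, and 51.4% in the 5 C-type genes. The ratio of observed to expected CpG had a median of 0.641 in alpha, 0.513 in gamma and 0.334 in beta, against 0.474 over all genes. It was 0.552 at members with JARID2 and 0.351 at members without, with ranges of 0.201 to 0.820 and 0.138 to 0.702 that overlapped. Of the 23 members without JARID2, 15 were beta genes, so this comparison was not separate from that of the clusters. The 3 alpha genes without JARID2 had 0.572 (Pcdha6), 0.664 (Pcdha7) and 0.702 (Pcdha8), around the alpha median. A relation between the ratio and JARID2 was not tested. The lowest value was at Pcdhb9 (0.138) and the highest at Pcdhgc3 (0.820). The promoters were also searched on both strands, from 250 bases before to 30 bases from the start on. The letters sought were CGCT (from the core of the conserved sequence element of these promoters), AGGNGGC (a core of CTCF sites) and TATAAA (the TATA box letters). Matches this short do not show that a whole element or a bound site is present. The conserved element core was present in 55 of 57 mouse promoters (all but Pcdhb22 and Pcdhga12) against 64.7% of all promoters, the CTCF core in 5 of 57 against 6579 of all 21938 promoters, and the TATA box letters in 9 of 57 against 12.2%.

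In HCT116 cells H2A.Z was found at 3 of 53 human promoters, against 50.2% of all human protein-coding genes. The genes were the C-type genes PCDHAC1 (71.6% of the window) and PCDHAC2 (85.7%) and 1 gamma A gene, PCDHGA10 (52.4%), and at all 3 the start lay inside the peak. The peaks were 1796 bp wide at chr5:140925868-140927663 (hg38), 2795 bp at chr5:140964389-140967183 and 1062 bp at chr5:141412940-141414001. The PCDHAC2 peak lay mostly upstream, with its upstream edge at position -2081 relative to the start. No other alpha or gamma gene and 0 of 16 beta genes had a peak, and 2 further H2A.Z peaks lay in the alpha span, 12.6 kb downstream of the PCDHAC1 start and 34.7 kb downstream of the PCDHAC2 start. Between alpha and beta, 2 peaks of 2117 and 1806 bp lay 23.3 and 10.0 kb upstream of PCDHB1.

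The 3 promoters with H2A.Z are printed here beside 2 without it, the upstream neighbour PCDHGB6 and the C-type gene PCDHGC3, to let their sequences be compared. Each run gives the hg38 plus strand, which is the coding strand, from 250 bases before the annotated start to 30 bases from it on. Capitals mark matches to the conserved element core, the CTCF core or the TATA box letters on either strand, and matches that overlap run together.
PCDHAC1, chr5:140926049-140926328: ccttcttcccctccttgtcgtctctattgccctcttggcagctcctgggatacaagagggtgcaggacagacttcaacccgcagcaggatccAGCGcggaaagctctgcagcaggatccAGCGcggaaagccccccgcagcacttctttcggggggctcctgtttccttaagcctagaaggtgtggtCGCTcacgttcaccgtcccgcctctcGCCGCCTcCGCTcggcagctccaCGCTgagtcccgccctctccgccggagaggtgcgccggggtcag
PCDHAC2, chr5:140966220-140966499: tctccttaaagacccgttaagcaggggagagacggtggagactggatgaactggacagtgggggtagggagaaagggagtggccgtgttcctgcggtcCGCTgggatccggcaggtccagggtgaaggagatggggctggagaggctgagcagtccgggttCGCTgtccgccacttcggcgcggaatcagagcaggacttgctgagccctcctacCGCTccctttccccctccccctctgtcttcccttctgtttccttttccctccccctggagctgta
PCDHGA10, chr5:141412737-141413016: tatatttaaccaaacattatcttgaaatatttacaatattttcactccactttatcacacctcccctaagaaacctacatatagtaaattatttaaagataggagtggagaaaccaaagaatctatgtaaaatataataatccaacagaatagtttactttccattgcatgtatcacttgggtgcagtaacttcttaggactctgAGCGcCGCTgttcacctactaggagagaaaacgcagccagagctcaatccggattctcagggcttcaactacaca
PCDHGB6, chr5:141407771-141408050: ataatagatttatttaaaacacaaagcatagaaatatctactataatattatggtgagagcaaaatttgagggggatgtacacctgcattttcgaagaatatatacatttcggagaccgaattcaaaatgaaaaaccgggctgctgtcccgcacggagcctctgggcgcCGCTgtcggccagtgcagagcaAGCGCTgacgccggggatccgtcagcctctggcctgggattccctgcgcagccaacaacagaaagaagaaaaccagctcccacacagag
PCDHGC3, chr5:141475697-141475976: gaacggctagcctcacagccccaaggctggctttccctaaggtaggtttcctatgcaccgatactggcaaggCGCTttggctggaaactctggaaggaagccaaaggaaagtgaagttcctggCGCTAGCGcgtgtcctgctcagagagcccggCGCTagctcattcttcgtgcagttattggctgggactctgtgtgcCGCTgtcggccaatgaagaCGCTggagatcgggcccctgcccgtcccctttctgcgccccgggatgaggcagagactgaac
PCDHAC1 held 5 matches to CGCT and 1 to AGGNGGC. For CGCT, PCDHAC2 held 3 matches, PCDHGA10 held 2, PCDHGB6 held 3 and PCDHGC3 held 6. The promoters with H2A.Z were not alike in composition: G+C made up 64.6% of these bases at PCDHAC1, 61.8% at PCDHAC2 and 36.4% at PCDHGA10, against 48.2% at PCDHGB6 and 59.6% at PCDHGC3. Over all members the letters CGCT were present in 51 of 53 human promoters, against 75.0% of all human promoters. AGGNGGC was present in 5 of 53 against 37.2%, and the TATA box letters in 13 of 53 against 10.5%. Words of 31 bases found again elsewhere in hg38 made up 0% to 44.0% of the human windows (median 2.89%), and the median over the 50 promoters without a peak was 2.94%.

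H2BK120ub1 was found in HCT116 cells at 0 of 53 human promoters, against 24.0% of all genes, and in 0 of 53 gene bodies, against 51.2% of all genes over 3000 bp. No peak of the list lay in the 3 cluster spans, which together cover the 607 kb of the alpha, beta and gamma genes. Outside the spans, no peak lay between alpha and beta. Between beta and gamma there were 7, which covered 9.36 kb over and near SLC25A2 and TAF7 and lay between 36.7 and 9.86 kb upstream of the PCDHGA1 start. Downstream of gamma the first of 19 peaks in 50 kb began 1.01 kb past the cluster, towards DIAPH1 (58.3% of its body covered). Upstream of alpha the last peak ended 79.8 kb before the PCDHA1 start, and the next began 508 kb past it. In mouse ES cells H2BK120ub1 was also at the promoters of Slc25a2, Taf7 and Diaph1, and the gamma cluster between them held 12 peaks. The species, cell type and peak counts of the lists differ, and with 1 list for each they cannot be told apart, so no test of the difference was made.

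**Figure D5:**
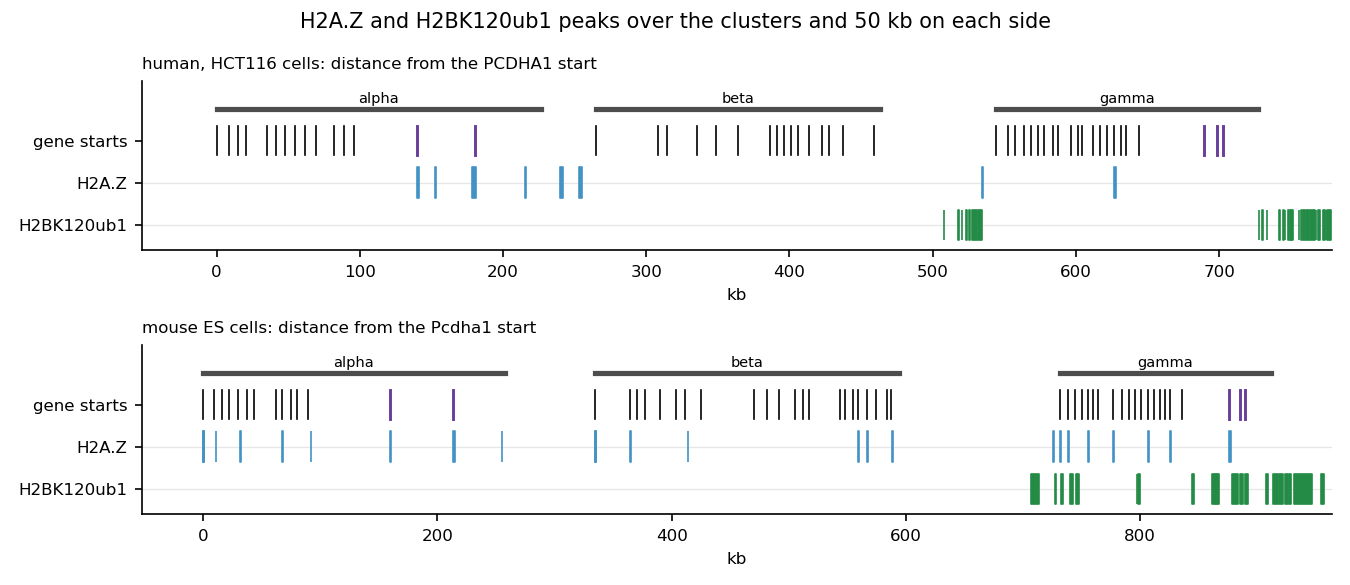
H2A.Z and H2BK120ub1 peaks over the human clusters in HCT116 cells (top) and the mouse clusters in ES cells (bottom), with 50 kb on each side; the x axis is distance in kb from the first alpha gene start, ticks are gene starts (purple for C-type genes) and thin outlines keep narrow peaks visible. No human H2BK120ub1 peak lies in the 3 clusters, with the closest 1.01 kb past the end of gamma, and the mouse gamma cluster holds 12.

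Within the human set, H2A.Z was at 2 of 5 C-type promoters and 1 of 48 others. In the mouse it was at 3 of 5 C-type promoters and 13 of 52 others. PCDHAC1 and PCDHAC2 and their mouse counterparts Pcdhac1 and Pcdhac2 had the mark in both lists, and PCDHGC4 and PCDHGC5 and their counterparts had it in neither. The counterpart of PCDHGA10, Pcdhga10, had no H2A.Z peak in the mouse, and Pcdhgc3 had one while PCDHGC3 did not. Human members were poor in H2A.Z beside the other sets: 3 of 10 delta protocadherins, 27 of 39 HOX genes, 15 of 18 regulators and 10 of 11 partner genes had it at the promoter.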

How the data were processed

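The series holds 54 samples, and 7 peak lists were used. Per the labels and the study's methods, reads were trimmed (Trim Galore 0.0.6), aligned with Bowtie2 2.4.2 to mm10 or hg38 together with the dm6 spike-in genome, kept where uniquely mapping and stripped of duplicates (Picard 2.26.10, SAMtools 1.12). The authors called broad peaks with MACS2 2.2.6 (q of 0.05, broad cutoff of 0.1) against inputs. For final lists they describe merging peaks within 500 bp with bedtools, keeping those found in all replicates and removing blacklisted regions. The names of the E14 lists mention replication and blacklist removal, and those of the JARID2 and HCT116 lists do not. The deposited files give positions only, with no score or signal, so no statistical test was run (0 tests). Read numbers that the study lists for its libraries were not used.

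Gene starts came from GENCODE M21 (mm10) and 44 (hg38). Overlap of at least 1 bp with the window of 1 kb on each side of a start counted as a peak at the promoter. Members, gene lists and tests were chosen with earlier results of these data known. Named genes were the C-type genes, members with a peak in a list where at most 12 have one, otherwise the 5 most covered, and members whose combination of lists at most 5 share. The overlap code was tested on simulated data, with 200 planted peaks over 21938 start sites, where 0 windows differed from enumeration of bases. Sequences were read from mm10 and hg38. Python 3.11.15, numpy 2.4.6 and matplotlib 3.10.9 were used. Windows of 500 bp and 2 kb, the start position alone, at least 500 bp covered and peaks of at least 1 kb were tried as alternatives.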

Additional observations from a re-analysis of the deposited data

How the results depend on the processing

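Of 48 recomputed values of results above 0, 39 stayed within 1.5 times the value reported and 9 moved. Human H2BK120ub1 was at 0 in all 8 of its alternatives, for which no ratio exists. Counting only starts inside a peak, members with H3K27me3 fell to 21 (from 48), with H2A.Z to 8 (from 16), with H2AK119ub1 to 3 (from 17) and with H2BK120ub1 to 1 (from 4), this definition being narrower by construction. By that definition H3K27me3 was at 36.8% of members against 12.4% of all protein-coding genes, and H2A.Z at 14.0% against 22.0%. H2AK119ub1 was at 5.26% against 6.13%, and H2BK120ub1 at 1.75% against 5.34%. The higher share of members with H2AK119ub1 in windows of 1 kb was therefore not seen at the start position itself. H2BK120ub1 was also at 1 promoter with 500 bp on each side (against 20.5% of all protein-coding genes) and at 8 with 2 kb (against 31.3%). It was at 1 where at least 500 bp of the window had to be covered (against 20.7%). With peaks of at least 1 kb, H2A.Z remained at 3 promoters and in 3 peaks of the spans (from 21). Its share of members was then 5.26%, against 20.4% of all protein-coding genes, so the near-equal shares reported above depended on narrow peaks. No paired analysis was possible because each list is 1 set of positions without values for replicates, and for the same reason no replicate could be left out. The lists give no signal, so the absence of a peak cannot be told apart from signal below the calling threshold.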
